A study of Homo sapiens with 3 samples.

Results

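The genes described here encode the subunits of respiratory complexes II, III, IV and V and cytochrome c. Members were found by name among the probes of 3 arrays: symbols that begin with UQCR, COX4 to COX8 or ATP5, together with SDHA, SDHB, SDHC, SDHD, CYC1 and CYCS, without pseudogenes. The annotation holds 52 such genes, and 49 of them had a probe, out of 25006 named genes with a probe. Each gene is given by its brightest probe. For 44 members that probe was well above background in all 6 channel readings (2 dyes on 3 arrays), and counts below are over these 44 unless stated otherwise. No probe was found for UQCRHL, COX7A2 and ATP5MF-PTCD1.

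Complex II (succinate dehydrogenase) feeds electrons from the TCA cycle into the respiratory chain, and complex III passes electrons on to cytochrome c. Complex IV (cytochrome c oxidase) hands them to oxygen, and complex V (ATP synthase) uses the proton gradient built along the way to make ATP. Most subunits are nuclear genes that are translated in the cytosol and imported, and they assemble with a few subunits that mitochondrial DNA encodes. Glioma cells use both glycolysis and this chain.

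U87WT 5 and U87Mut 5 are stable clones of the human glioblastoma line U-87MG (U87). U87WT 5 was transfected with GFP-IGF1R, a receptor that can enter the nucleus, and U87Mut 5 with GFP-IGF1R1025x-1100x-1120x, which stays outside it. The study asked how the nuclear localization of IGF1R changes gene expression. On each array U87WT RNA carried Cy5 and U87Mut RNA carried Cy3. The arrays differed in the culture of both clones: serum-free medium for 24 h, 50 nM IGF1 for 24 h, or 50 nM IGF1 with OSI906, an inhibitor of the IGF1R and insulin receptor kinases. The OSI906 dose is 0.5 μM in the study's methods and in the treatment protocol, while the label of the medium gives 500 μM. Each genotype is 1 clone, no parental U87 sample is part of the comparison, and each condition has 1 array. The dyes were never swapped, so a difference between the clones and a dye bias of a probe cannot be told apart.

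The 3 arrays were of similar brightness, with 50.1% to 52.8% of probes well above background in both dyes. After IGF1 a patch of 27 spots had a raised Cy5 background of up to 66985, and spots marked as not uniform were kept out of the background fit and the averages. IGF1R itself, measured by 1 probe, had a log2 ratio of U87WT over U87Mut of 0.07, 0.23 and 0.09 in serum-free medium, IGF1, and IGF1 with OSI906. Both clones carry an IGF1R vector, and whether this probe lies in the vector's insert is not known, so it checks no label. Of 7 glioma and astroglial markers, VIM, NES, CD44 and OLIG2 were well above background in all 6 channel readings and S100B in 2, while GFAP and SOX2 were in none. The neuronal gene SNAP25 had ratios of 1.06, 1.03 and 0.91 and was called higher in U87WT (limma, adjusted p = 0.00278), as was the epithelial gene EPCAM (adjusted p = 0.0463). The other neuronal markers lay mostly below 0 and were not called, SYT1 with -0.28, -0.17 and -0.06 and RBFOX3 with -0.31, -0.55 and 0.38 (limma, adjusted p = 0.147 and 0.714). In all, 3 of 3 neuronal, 1 of 1 leukocyte, 1 of 2 endothelial and 2 of 2 epithelial markers with a probe were well above background, and no other was called. Their part in the results was not tested.

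Values below are log2 ratios of U87WT over U87Mut, so that 0 means equal levels. They are given in the order serum-free medium, IGF1, and IGF1 with OSI906. A ratio of a single array has no replicate error. The SD of a single ratio over bright probes, which holds noise and response to treatment together, was 0.143. It came from the difference between the serum-free array and the array of IGF1 with OSI906, so the IGF1 array did not enter it. Spots of the same probe had a median SD of 0.045 to 0.051 within an array. A gene past 0.5 in size was counted as higher or lower on that array.

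Few members passed that limit in either direction. The shares above it were 4.55%, 4.55% and 2.27% on the 3 arrays, each lower than that of all named genes. In serum-free medium 2 of 44, ATP5F1E and ATP5IF1, were above 0.5, as were 6.34% of all named genes, and 0 of 44 were below -0.5 against 6.14%. After IGF1, ATP5F1E and UQCRC2, again 2 of 44, were above against 7.24%, and 0 were below against 4.66%. After IGF1 with OSI906, ATP5F1E alone was above against 5.75%, and CYCS alone was below against 5.66%. Above the limit after IGF1 the share depended on the processing. With normexp fitted on all spots 7 of 44 members (15.9%) were above 0.5 after IGF1, against 2.68% of named genes, and 10 of 44 (22.7%) were in the deposited table, against 3.06%. With median normalization in place of loess 38 of 44 (86.4%) were, against 30.1%. In serum-free medium ATP5IF1 was just past the limit at 0.52, and SDHA at 0.49 and ATP5PO at 0.48 were just short of it. The medians of the members were 0.03, 0.04 and 0.07, against -0.01, 0.02 and -0.01 over all 15347 named genes well above background.

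The clones were also compared over the 3 arrays with limma, with Benjamini-Hochberg adjustment over 58201 probes. The 3 arrays are 3 conditions, so the response to treatment adds to the error of this test, and the dye is the same in each. It called 9 of 44 members (20.5%) higher in U87WT, against 11.5% of all named genes. It called 0 lower, against 11.1%. At an unadjusted p under 0.05 there were 12 of 44 members higher and 4 lower, against 3543 and 3512 of 15347 named genes. All 3 ratios were above 0 for 16 members (36.4%) and below 0 for 6 (13.6%), against 28.7% and 28.7% of the named genes. The number of calls rests on the arrays used, for all probes as for the members. Without the serum-free array limma called 3 members higher, without the IGF1 array 9, and without the array of IGF1 with OSI906 0. Over all probes it made 5107 calls in either direction with 3 arrays, and 1902, 6284 and 675 with these arrays left out. It also rests on the processing. With normexp fitted on all spots or in the deposited table limma called 2 members higher, and 720 and 785 of all probes in either direction. It called 0 members with the processed signals of the scanner software, an offset of 0 or median normalization in place of loess. Of all probes it called 0, 695 and 0 there. Members at an unadjusted p under 0.05 are not counted for these settings or with an array left out. The share of named genes at that p was not computed there. The 9 genes come from every complex, 1 from complex II, 3 from complex III, 2 from complex IV and 3 from complex V.

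**Figure D1:**
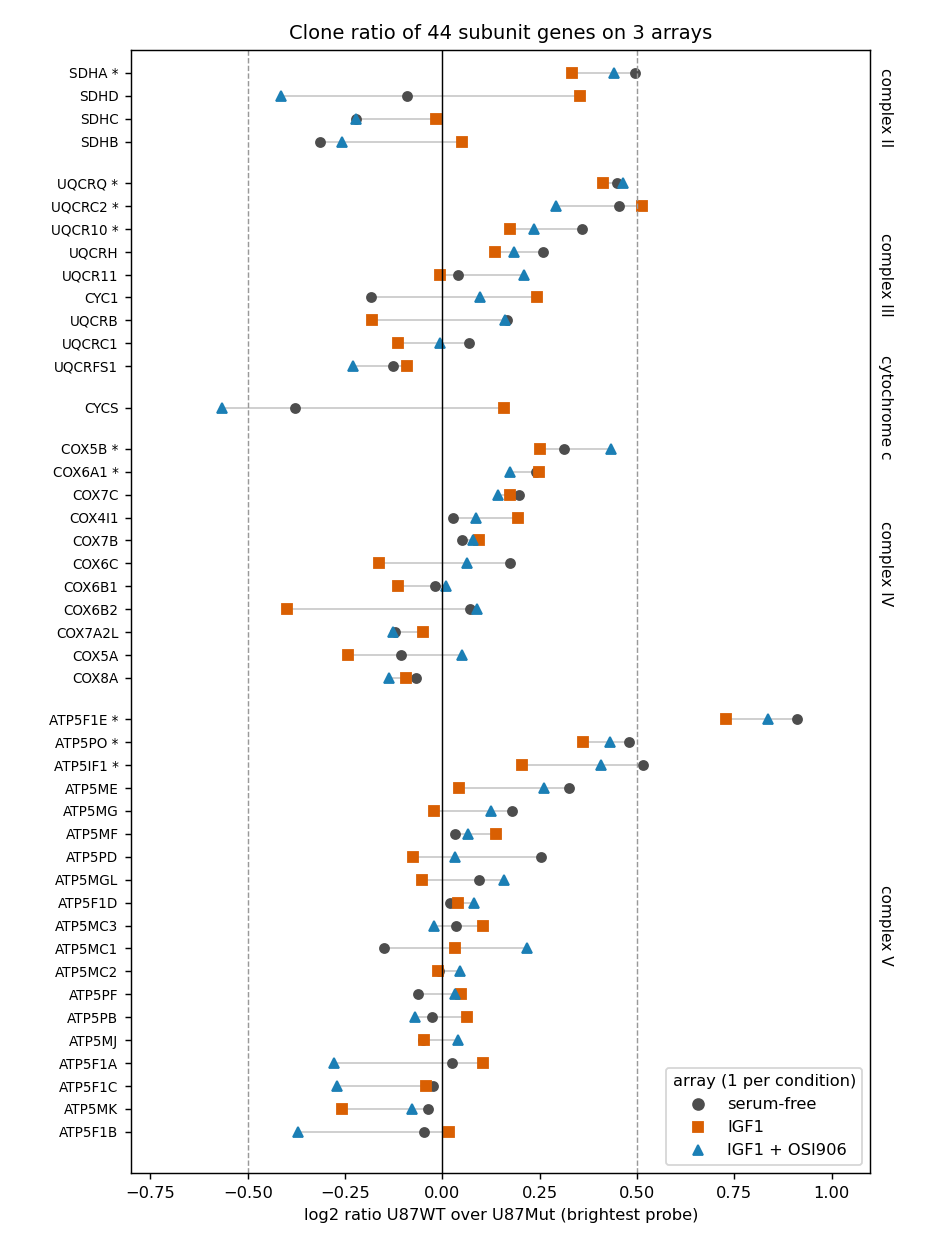
Log2 ratio of U87WT over U87Mut (x axis) for the 44 members well above background, grouped by complex and ordered by mean ratio. Each gene has 1 point per array, the grey bar joins its lowest and highest point, dashed lines mark 0.5 and -0.5, and a star marks the 9 genes called by limma. ATP5F1E lies to the right of the limit on all 3 arrays, and CYCS, SDHD and COX6B2 have the widest spread between arrays.

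In complex II the subunits differed among themselves. SDHA, the flavoprotein that oxidizes succinate, had ratios of 0.49, 0.33 and 0.44. All 3 were above 0, and the mean of 0.42 ± 0.045 (SE, n = 3 arrays), or 1.34-fold, was called higher in U87WT (limma, adjusted p = 0.0109). Its 3 dimmer probes had lower means of 0.22, 0.16 and 0.07, and on the array with OSI906 they lay between -0.05 and 0.06. SDHB, the iron-sulfur subunit that passes the electrons on, had ratios of -0.31, 0.05 and -0.26. SDHC, a membrane anchor, had ratios of -0.22, -0.02 and -0.22. The other anchor, SDHD, had ratios of -0.09, 0.35 and -0.41. None of these 3 was called (limma, adjusted p = 0.32, 0.209 and 0.895). On the brightest probe each had its highest ratio on the IGF1 array. The second SDHC probe did not, with 0.33, 0.03 and 0.09, while the dimmest had -0.63, 0.13 and -0.37. In the deposited table SDHD had -0.09, -0.15 and -0.42, so its highest ratio was not after IGF1. SDHB kept its highest ratio there, with -0.31, -0.17 and -0.25.

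Cytochrome c, the protein that carries electrons between complexes III and IV, had the pattern of SDHD. Its gene CYCS had ratios of -0.38, 0.16 and -0.57, so that U87WT was the lower clone on both arrays other than IGF1. The mean of -0.26 ± 0.145 was not called by limma (adjusted p = 0.404). The ratio after IGF1 exceeded the mean of the other 2 arrays by 0.63 for CYCS and by 0.61 for SDHD, and 0.841% and 1.05% of all named genes had a difference as high. With 1 array per condition these differences have no test. For SDHD the 3 probes ran alike, with 0.21 to 0.35 on the IGF1 array and -0.32 to -0.52 on the array with OSI906. The CYCS probes did not: the second in brightness had -0.41, -0.16 and -0.71, and the dimmest -0.01, -0.24 and -0.09. The sign on the IGF1 array depends on the background fit, since with every spot in the fit CYCS had -0.10 and SDHD -0.08 there, and in the table that the authors deposited -0.13 and -0.15. SDHB, also at 0.05 on that array, went to -0.16 with every spot in the fit and to -0.17 in the deposited table. Without the IGF1 array limma called CYCS (-0.47, adjusted p = 0.0142) and SDHB (-0.29, adjusted p = 0.0273) lower in U87WT, and it called SDHA higher (0.47, adjusted p = 0.00798). CYCS has 45 annotated pseudogenes by symbol, and SDHD 7. Signal from such copies was not separated.

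**Figure D2:**
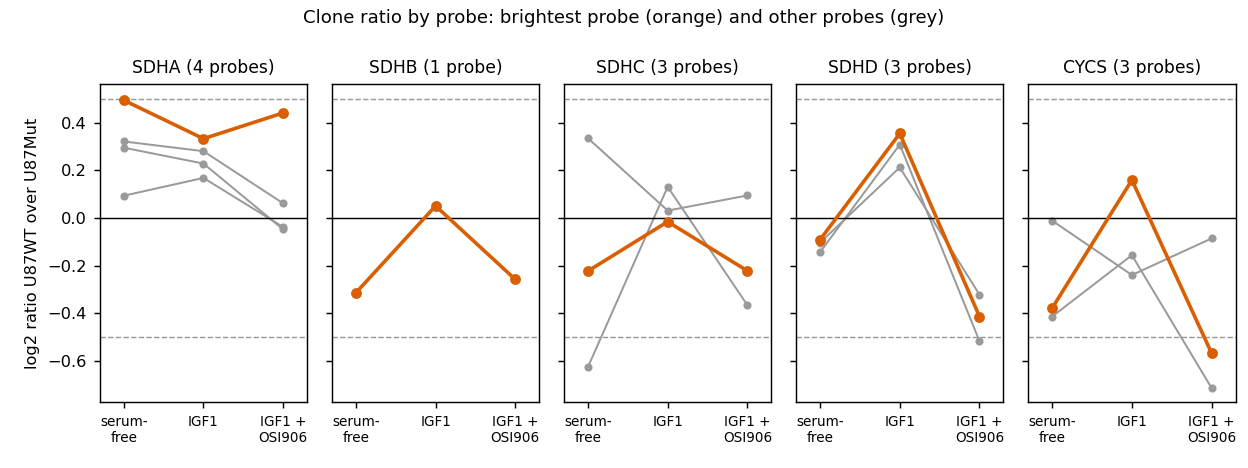
Log2 ratio of U87WT over U87Mut (y axis) on the 3 arrays (x axis) for each probe of the complex II genes and CYCS. The brightest probe is in orange, the others are in grey, and dashed lines mark 0.5 and -0.5. The SDHD probes run together with their peak on the IGF1 array, whereas the probes of SDHC and CYCS part from each other.

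NRF1 and GABP are transcription factors known for binding the promoters of respiratory genes. The promoter table, from RefSeq (GRCh38.p14), held 45 promoters of 39 member genes, and the 250 bases before each start site were searched on both strands. GCATGCGC, a core of the NRF1 motif, was found in 10 of the 45 (22.2%), against 2.63% of all 35116 promoters. The GABP core CCGGAAG was found in 14 (31.1%), against 8.52%. The median GC content of these windows was 60% in members and 58% in all promoters. The NRF1 core stood before 9 member genes. CYCS, SDHD and SDHB are shown here because the ratio of their brightest probe changed sign between arrays with the main processing. COX5B and COX6A1 are shown as the carriers of the core that limma called, and ATP5F1C as a carrier in the F1 head. The remaining carriers were ATP5MC2, ATP5ME and ATP5PF. Each line gives 30 bases on the gene's own strand with the NRF1 core in capitals.
CYCS (chr7:25125411-25125440, minus strand, 169 bases before the start): catgctcgccaGCATGCGCgcgcaggtcct
SDHD (chr11:112086752-112086781, plus strand, 110 bases before the start): cagctgtgtttGCGCATGCGCgacgggtgt
SDHB (chr1:17054214-17054243, minus strand, 200 bases before the start): aagccaaatggGCATGCGCcgctactgcgc
COX5B (chr2:97645915-97645944, plus strand, 136 bases before the start): ggcagagctggGCATGCGCaatttccgccc
COX6A1 (chr12:120437884-120437913, plus strand, 218 bases before the start): ggagggcacacGCATGCGCacgaaggaaac
ATP5F1C (chr10:7788144-7788173, plus strand, 22 bases before the start): ggggagcttcgGCGCATGCGCgctgaggcc
In SDHD and ATP5F1C the core overlaps its own reverse complement, so that the run of capitals is longer. The 9 carriers of the NRF1 core did not share a direction: 5 had a mean ratio above 0, and 6 had a higher ratio on the IGF1 array than the mean of the others. Their median mean ratio was 0.0055, and that of the 26 members whose promoter lacked the letters was 0.07. A match of letters does not show that a factor binds there.

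The whole window before CYCS (chr7:25125261-25125510, minus strand) is shown because this gene had the lowest ratio of all members. Capitals mark the NRF1 core and CCAAT boxes, the letters CCAAT on either strand.
CYCS: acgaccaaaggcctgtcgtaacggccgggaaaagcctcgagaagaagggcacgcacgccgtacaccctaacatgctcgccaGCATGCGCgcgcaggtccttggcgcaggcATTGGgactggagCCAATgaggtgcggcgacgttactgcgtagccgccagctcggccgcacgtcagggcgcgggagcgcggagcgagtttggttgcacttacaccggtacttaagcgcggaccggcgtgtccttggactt
It holds 1 NRF1 core, 2 CCAAT boxes and no GABP core, at 64.4% GC.

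In complex III, 3 of 9 members were called higher in U87WT. UQCRQ, a small subunit near the cytochrome b core, had ratios of 0.45, 0.41 and 0.46, the most even of the called genes, with a mean of 0.44 ± 0.034 or 1.36-fold (limma, adjusted p = 0.00584). Both evenness and size depended on the processing. With normexp fitted on all spots UQCRQ had 0.47, 0.89 and 0.46, and with the signals processed by the scanner software 0.15, 0.24 and 0.21. UQCRC2, a core protein on the matrix side, had ratios of 0.45, 0.51 and 0.29 and a mean of 0.42 ± 0.054 (adjusted p = 0.0168). Its probe was printed in 10 spots on each array, with an SD between spots of 0.027 to 0.037, and the lowest spot on the IGF1 array was 0.46. UQCR10, another small subunit, had ratios of 0.36, 0.17 and 0.24 and a mean of 0.26 ± 0.048 (adjusted p = 0.0449). Its 2 dimmer probes did not follow, with means of 0.03 and -0.18.

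The catalytic subunits of complex III were not called. CYC1, the cytochrome c1 that hands electrons to cytochrome c, had ratios of -0.18, 0.24 and 0.10, and UQCRFS1, the Rieske iron-sulfur protein, had -0.13, -0.09 and -0.23. UQCRH, the acidic hinge protein, had 0.26, 0.14 and 0.18 and missed the threshold (limma, adjusted p = 0.0579). With the signals processed by the scanner software UQCRH had -0.02, -0.02 and -0.03. Its second probe, at a mean level of 14.47 against 14.88, had 0.09, -0.02 and -0.01. UQCRB, UQCRC1 and UQCR11 had means between -0.02 and 0.08. The other core protein, UQCRC1, thus had ratios of 0.07, -0.11 and -0.01 where UQCRC2 was high on every array.

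The study coded each ratio as 1 above a limit, -1 below its negative and 0 between, and listed genes over- or underexpressed after IGF1. Its methods do not say how the codes of the arrays were compared. Here a gene was called higher by IGF1 when its code after IGF1 was above both other codes, and lower when below both. A gene can thus be called higher with a ratio below 0 after IGF1, or lower with one above 0. The study set the limit at 0.5 SD of all ratios of an array, which came to 0.11 on each array here, below the SD of 0.143 of a single ratio. A fixed limit of 0.5 was used here in its place, and the members called differ between the limits. At 0.5, UQCRC2 was the 1 member of 44 called higher by IGF1, against 3.52% of named genes. No member was lower at this limit, against 2.11% of named genes. The call of UQCRC2 rests on 0.51 against a limit of 0.5, with 0.45 in serum-free medium. With the limit of 0.5, the rule turned to the serum-free array called ATP5IF1 higher, and turned to IGF1 with OSI906 it called CYCS lower, so each condition gave 1 member. At 0.5 SD, 9 of 44 members were higher by IGF1, against 16.7% of named genes, and 9 were lower, against 9.7%. The higher ones were SDHB, SDHC, SDHD, CYCS, CYC1, UQCRFS1, COX4I1, COX7A2L and ATP5MF, and UQCRC2 was not among them. The lower ones were UQCRB, UQCRC1, COX5A, COX6B1, COX6B2, COX6C, ATP5ME, ATP5MG and ATP5MK.

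In complex IV, 2 of 11 members were called higher. COX5B, which binds zinc, had ratios of 0.31, 0.25 and 0.43 and a mean of 0.33 ± 0.048 (limma, adjusted p = 0.0225). COX6A1, the common form of subunit 6A, had 0.24, 0.25 and 0.17 and a mean of 0.22 ± 0.036 (adjusted p = 0.0314). COX6A1 lost its direction when the signals processed by the scanner software were used, with -0.05, 0.05 and -0.09. COX5A had -0.11, -0.24 and 0.05, and its second probe was lower, with -0.20, -0.42 and -0.12. COX4I1, a large nuclear subunit of the complex, had 0.03, 0.20 and 0.09.

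Of the other common forms, COX6B1 had ratios of -0.02, -0.12 and 0.01, COX7B had 0.05, 0.09 and 0.08, and COX8A had -0.07, -0.09 and -0.14. COX6C had 0.17, -0.16 and 0.06 and COX7A2L, a subunit known from supercomplexes, -0.12, -0.05 and -0.13. The second probe of COX8A was lower, with -0.27, -0.48 and -0.34. COX7C had 0.20, 0.17 and 0.14 and missed the threshold (limma, adjusted p = 0.0531). Its value on the IGF1 array turned on 1 of 10 spots. That spot lay in the bright patch, with a local Cy5 background of 56686 where the other 9 had 20 to 23. It would have read -8.80 by itself, and the probe would have read -0.73 with it. The other 9 spots read 0.15 to 0.20 in the normalized data, and the deposited table gives -0.40 for this probe. With every spot in the background fit it had 0.55.

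Complex IV also has forms that are known for particular tissues or conditions. COX6B2, known from testis, was the only one of them well above background throughout. It had ratios of 0.07, -0.40 and 0.09, so that U87WT was the lower clone on the IGF1 array only, and its mean was not called (limma, adjusted p = 0.756). Of all named genes, 2.09% had a ratio on the IGF1 array as far below the mean of the others (-0.48). Its dim second probe had -0.04, 0.22 and 0.17, the other direction on the IGF1 array. COX4I2, known from lung and from low oxygen, and COX8C were well above background in 5 of the 6 channel readings. The muscle form COX6A2 was in 3, and COX7A1, also of muscle, and COX7B2 were in none. The ratios of these 5 genes lie near the background and are not read here.

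In complex V, 3 of 19 members were called higher in U87WT. ATP5F1E, the epsilon subunit of the central stalk, stood apart from every other member. Its ratios were 0.91, 0.73 and 0.84, with a mean of 0.82 ± 0.048 or 1.77-fold (limma, adjusted p = 0.00363). It stayed called without the serum-free array (adjusted p = 0.0256) and without the IGF1 array (adjusted p = 0.00255), but not without the array of IGF1 with OSI906 (adjusted p = 0.0502). Of all named genes, 1.52% had a mean as high. In channel levels, the U87WT values were 16.14, 15.91 and 16.10 and the U87Mut values 15.23, 15.19 and 15.26. The signals processed by the scanner software gave smaller ratios of 0.60, 0.46 and 0.53. ATP5F1E has 1 probe, 2 annotated pseudogenes by symbol, and a readthrough transcript, SLMO2-ATP5E, that overlaps it, and their signal on this probe cannot be told apart.

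The window before ATP5F1E (chr20:59032336-59032585, minus strand, GRCh38.p14, within the readthrough gene) is shown because its ratio was the highest of the members. Capitals mark CCAAT boxes on either strand.
ATP5F1E: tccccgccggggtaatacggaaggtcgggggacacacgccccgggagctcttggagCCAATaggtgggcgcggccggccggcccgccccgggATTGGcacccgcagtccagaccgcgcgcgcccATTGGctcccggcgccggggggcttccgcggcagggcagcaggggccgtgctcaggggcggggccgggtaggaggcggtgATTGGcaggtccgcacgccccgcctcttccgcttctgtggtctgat
It holds 4 CCAAT boxes and neither the NRF1 core nor the GABP core, at 74.8% GC. A CCAAT box was found in 42.2% of member promoters and 32% of all promoters.

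The other members of the F1 head were not higher in U87WT. ATP5F1A and ATP5F1B, which form the catalytic sites, had ratios of 0.03, 0.10 and -0.28, and of -0.05, 0.02 and -0.37. ATP5F1C, the rotating gamma subunit, had -0.02, -0.04 and -0.27. These 3 had their lowest ratio on the array with OSI906, and none was called (limma, adjusted p = 0.802, 0.47 and 0.394). ATP5F1D, the delta subunit that binds epsilon, had 0.02, 0.04 and 0.08.

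ATP5PO, which links the peripheral stalk to the head, had ratios of 0.48, 0.36 and 0.43 and a mean of 0.42 ± 0.039 (limma, adjusted p = 0.00821). The signals processed by the scanner software gave it smaller ratios of 0.27, 0.21 and 0.27. The other stalk subunits, ATP5PB, ATP5PD and ATP5PF, had means of -0.01, 0.07 and 0.01. ATP5IF1, the inhibitor that blocks the enzyme from running backwards, had 0.52, 0.20 and 0.41 and a mean of 0.38 ± 0.068 (adjusted p = 0.0398). Its second probe was also above 0 on each array, with 0.25, 0.08 and 0.26. The genes of the c ring, which encode the same mature protein, had ratios near 0. ATP5MC1 had -0.15, 0.03 and 0.22, ATP5MC2 had -0.01, -0.01 and 0.04, and ATP5MC3 had 0.04, 0.11 and -0.02. The small membrane subunits ATP5ME, ATP5MF, ATP5MG, ATP5MGL, ATP5MJ and ATP5MK had means between -0.13 and 0.21, and limma called none of them over the 3 arrays. Without the IGF1 array it called ATP5ME higher (0.29, adjusted p = 0.0262). ATP5MGL is a near copy of ATP5MG, so their probes may share signal.

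The next comparison was between conditions within each clone, as the difference in log2 channel level between arrays. With 1 array per condition, array effects and the response cannot be told apart, and each array serves more than 1 difference. From serum-free medium to IGF1, 1 of 44 members passed 0.5 in U87WT, against 4.56% of named genes, and 0 did in U87Mut, against 2.54%. That member was SDHA, at -0.52 in U87WT and -0.36 in U87Mut. Its levels were 12.81, 12.29 and 12.78 in U87WT and 12.31, 11.95 and 12.34 in U87Mut, so SDHA was lowest on the IGF1 array in both clones. The median difference over members was -0.10 in U87WT and -0.05 in U87Mut, and it was above 0 for 14 of 44 in each clone, where 52% and 42% of named genes were above 0.

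From IGF1 to IGF1 with OSI906, 3 members passed 0.5 in U87WT, against 7.2% of named genes, and 1 did in U87Mut, against 3.03%. CYCS was at -0.57 and SDHD at -0.50 in U87WT, where U87Mut had 0.16 and 0.27. COX6B2 was at 0.56 in U87WT and 0.07 in U87Mut. ATP5F1B was at 0.56 in U87Mut and 0.17 in U87WT. The levels behind these differences differed between arrays in both clones. CYCS was at 10.91, 11.11 and 10.55 in U87WT and at 11.28, 10.95 and 11.12 in U87Mut, so the clones changed order between arrays on this probe. On the other CYCS probes U87WT was the lower clone on every array, with ratios of -0.16 and -0.24 after IGF1. The brightest probe also kept that order with every spot in the background fit (-0.10 after IGF1) and in the deposited table (-0.13). SDHD was at 9.84, 10.04 and 9.54 in U87WT and at 9.93, 9.69 and 9.96 in U87Mut, the same order of arrays as CYCS in U87WT.

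Between serum-free medium and IGF1 with OSI906, 1 member passed 0.5 in U87WT, against 4.62% of named genes, and 1 in U87Mut, against 1.42%. In both clones this was COX6B2, at 0.59 in U87WT and 0.57 in U87Mut. Its levels were 10.90, 10.92 and 11.49 in U87WT and 10.83, 11.32 and 11.40 in U87Mut. COX6B2 was thus highest on the array with OSI906 in both clones, and in U87Mut it was already at 0.49 above serum-free medium after IGF1. The remaining members stayed within 0.5 on this comparison.

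**Figure D3:**
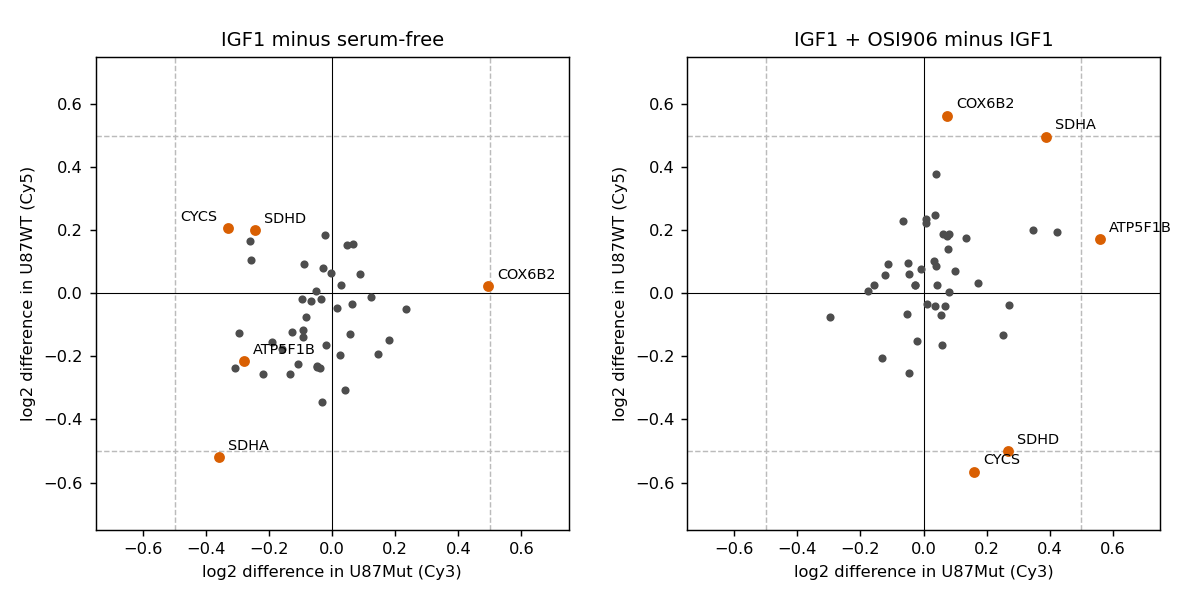
Difference in log2 channel level between arrays for the 44 members, in U87Mut (x axis) and U87WT (y axis). The left panel is IGF1 minus serum-free medium, the right panel IGF1 with OSI906 minus IGF1, and dashed lines mark 0.5 in size. SDHA lies below 0 in both clones on the left, while CYCS and SDHD are below 0 in U87WT and above 0 in U87Mut on the right.

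Other genes of the pathway are given by their counts, beside the 11.5% and 11.1% of named genes called higher and lower. Of 36 complex I subunit genes limma called 6 higher (16.7%) and 2 lower, NDUFA12 and NDUFAB1, in U87WT. Of 39 assembly factors of complexes II to V, 36 were well above background. Of these 2 were higher, SDHAF1 (0.25, adjusted p = 0.0195) and UQCC1 (0.71, adjusted p = 0.0426), and 5 lower (13.9%). Those were SCO1 at -0.47, COA4 at -0.38, TACO1 at -0.34, HIGD1A at -0.30 and COA7 at -0.27. SCO1, COA4 and COA7 are known for complex IV assembly and TACO1 for the translation of its largest subunit. Regulators of mitochondrial biogenesis had 1 of 16 higher, GABPA, and 6 lower (37.5%). MYC, a transcription factor of growth, was the only gene of these 3 lists past 0.5 in the same direction on all arrays, with -1.27, -1.26 and -1.09 (limma, adjusted p = 0.00262). The rest of the lower regulators were PPRC1, TFB1M, POLRMT, TWNK and SSBP1. TFAM, which packages mitochondrial DNA, had -0.96, -0.57 and -0.20 and was not called (adjusted p = 0.0971). The genes of this paragraph other than MYC were chosen after their values were seen. Of the 13 listed mitochondria-encoded subunits, 0 had a named probe, so the mitochondrial partners of these complexes were not measured here.

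**Figure D4:**
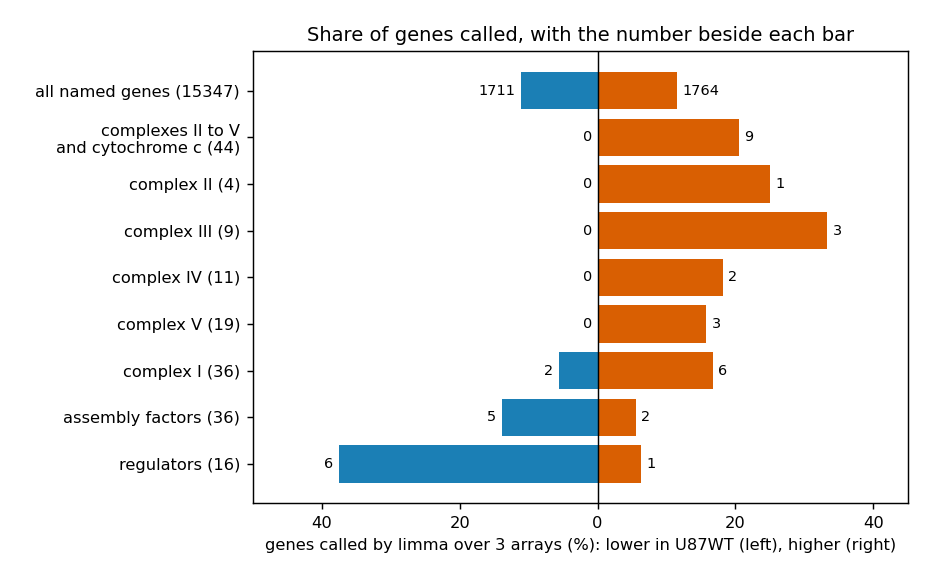
Share of genes that limma called over the 3 arrays (x axis, percent), higher in U87WT to the right and lower to the left, for each gene list (y axis, number of genes in parentheses). Numbers beside the bars are genes called. The members have 9 higher and 0 lower, while the regulators have 1 higher and 6 lower.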

How the data were processed

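RNA of U87WT 5 (Cy5) and U87Mut 5 (Cy3) was compared on 3 Agilent 2-color arrays, 1 per condition, which share a slide and a scan. Per the file headers, Agilent Feature Extraction 12.0.3.1 gave the median intensity of each spot and its local background, marks (other) for outlier, saturated (0 spots) and well above background spots, processed intensities, and a log10 ratio of red over green. The authors deposited a table of log2 ratios that they background-corrected and normalized in limma, with settings not given in the sources used here.

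Here normexp (offset 50, fitted without spots marked not uniform), loess and Aquantile were applied with limma 3.58.1 under R 4.3.3. The 2075 control spots and spots marked as outliers (96 to 638 per array) were dropped, and replicate spots were averaged to 58201 probes. Symbols came from RefSeq accessions for 34892 probes. Pathway genes are given by the brightest probe. A level is the log2 intensity of a channel after these steps. limma fitted the mean ratio over 3 arrays (lmFit, eBayes, Benjamini-Hochberg at 0.05). The number of arrays limits the precision. On simulated data limma recovered 92 of 100 probes moved by 0.5 and 100 of 100 moved by 1, with 18 false calls among 58201. Recovering an added shift cannot separate a clone difference from a dye bias, and each genotype is 1 clone. These numbers are therefore no error rate for the calls in the real data, which changed with the arrays used and the processing.

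Named with values are the subunits of complex II, CYC1, CYCS, the isoforms of complex IV and of the c ring, members past 0.5, called by IGF1 or by limma, and the 5 highest and 5 lowest by mean. Members and lists were chosen with earlier results of these data known.

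Alternatives were other background fits and offsets, no correction, processed signals, median or scale normalization, the deposited table, the mean of all probes, all members with a probe, other limits, leaving out each array and, chosen after seeing the data, keeping spots with an uneven background.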

Additional observations from a re-analysis of the deposited data

How the results depend on the processing

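No single-array ratio past 0.5 changed sign under the alternatives, while smaller ratios did, those of COX6A1 and COX7C among them. Of the counts and medians recomputed, 158 stayed within 1.5 times the reported count or 1 SD of a ratio, and 67 did not. Of the ratios of single genes, 1243 stayed within 1 SD and 209 did not. Under the alternatives, counts by IGF1 and between conditions have no share of named genes, apart from the study's limit. Such counts show how far a number moved and are not read as results about the members. No paired analysis was possible because each condition has 1 array. All arrays share the slide and scan, so neither could be a block.

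The IGF1 array depended most on the background fit. With normexp fitted on all spots, 7 members were above 0.5 and 1 below -0.5 after IGF1, with a median of 0.22, 5 were higher and 1 lower by IGF1, limma called 2 higher, and 1 passed 0.5 in U87Mut from serum-free medium to IGF1. In the deposited table, 10 were above and 1 below after IGF1, with a median of 0.23, 8 were higher and 1 lower by IGF1, and limma called 2. With the uneven background spots kept, 1 member, COX7C, was below after IGF1 and lower by IGF1, and 2 passed 0.5 in U87WT from serum-free medium to IGF1.

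The median in place of loess shifted all named genes to -0.17, 0.30 and 0.05, and the members to -0.11, 0.71 and 0.34. Then 1, 38 and 12 members were above 0.5 on the 3 arrays, 2 and 0 were below in serum-free medium and with OSI906, 26 were higher by IGF1 and limma called 0 members and 0 of all probes. Within U87WT 6 passed from serum-free medium to IGF1 and 2 from it to OSI906, and within U87Mut 14 and 0, with 4 from IGF1 to OSI906.

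Signals processed by the scanner software left 1 member above after IGF1, with 0 higher and 1 lower by IGF1. With these signals 0 passed in U87WT from serum-free medium to IGF1, and limma called 0 members and 0 of all probes. An offset of 0 left 1 above in serum-free medium, 1 after IGF1, 0 higher by IGF1 and 0 called by limma. It gave 1 passing in U87Mut from serum-free medium to IGF1, as did an offset of 20 and no background correction. No correction left 1 above in serum-free medium, and scale normalization gave 4.

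The mean of all probes left 1 above in serum-free medium, 0 below with OSI906 and 1 called lower by limma, with 0 passing in U87WT in each of the 3 comparisons and 0 in U87Mut from serum-free medium to OSI906. The study's limit of 0.5 SD gave 16, 16 and 17 above, 7, 7 and 10 below, and 9 higher and 9 lower by IGF1. A limit of 1 gave 0 above, 0 below and 0 higher by IGF1. Leaving out an array gave 0 to 9 called higher and 0 to 2 lower.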
